A study of Mus musculus with 2 samples.

Results

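The enzymes that compete for arginine, or that work downstream of it in nitric oxide and polyamine metabolism, were described through 6 genes taken by name, Arg1, Arg2, Nos2, Ass1, Odc1 and Sat1. All 6 of these names were among the 32285 features of both single-cell libraries. The splenectomy library came from hearts of wild-type C57BL/6J male mice whose spleen had been removed, and the sham library came from hearts of wild-type C57BL/6J males given sham surgery. The labels mark only the splenectomy library by its operation, and the remaining library was taken as sham because the stated design has no further group. Every animal was 8 weeks old and had its left anterior descending coronary artery occluded for 60 min and then reperfused for 24 h, so that neither library shows an uninjured heart. CD45+ cells were sorted magnetically from the hearts and profiled with 10x Genomics 3′ v3 chemistry, which counts unique molecular identifiers (UMIs). The comparison asks how the immune cells of a reperfused heart differ when the spleen has been removed. The labels do not say how many animals went into a library. With 1 library per group there is no test between groups, and every interval printed covers counting error only.

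Arginine has several competing fates in immune cells. Arginases split it into ornithine and urea, whereas nitric oxide synthases turn it into citrulline and nitric oxide, and argininosuccinate synthase starts the way back to arginine. Ornithine decarboxylase opens polyamine synthesis from ornithine, and spermidine/spermine acetyltransferase marks polyamines for breakdown or export. In mouse macrophages Arg1 is widely used as a sign of an alternatively activated or wound-healing state, and Nos2 as a sign of a classically activated state.

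After filtering, 4805 splenectomy cells and 5838 sham cells remained, with medians of 7219 UMIs and 4988 UMIs per cell. Ptprc, the gene of CD45, had a UMI in 79.4% of splenectomy cells and 79.7% of sham cells. The libraries shared 9 barcodes, of which 8 were kept in the analysis. Clustering gave 22 clusters, and 20 of these were named from marker genes, which excluded the 6 enzymes, as 10 classes of cells. The 8 classes with at least 50 cells in both libraries were neutrophil-like (1591 splenectomy cells and 2269 sham cells), monocyte-like (1328 and 1124), macrophage-like (891 and 1249), conventional dendritic cell-like (247 and 267), B cell-like (111 and 110), endothelial cell-like (106 and 108), nonclassical monocyte-like (67 and 133) and T cell-like (79 and 75). The dendritic class also held cells with Siglech, a plasmacytoid marker, 27 in splenectomy and 9 in sham. Endothelial cells carry no CD45 on their surface and had passed the sort.

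Levels are given as the UMIs of a gene per 1000000 UMIs of the class in that library (CPM), with the exact 95% Poisson interval where one is printed. They are compared between cell classes and libraries for 1 gene at a time, since 3′ counts of different genes share no common scale. In mm10 with the GENCODE vM21 annotation all 6 genes are protein coding. Arg1 lies on chromosome 10 (24915221 to 24927484, minus strand) and Arg2 on chromosome 12 (79130777 to 79156301, plus strand). Nos2 lies on chromosome 11 (78920787 to 78960254, plus strand) and Ass1 on chromosome 2 (31470207 to 31520672, plus strand). Odc1 lies on chromosome 12 (17544794 to 17551505, plus strand) and Sat1 on chromosome X (155213132 to 155216449, minus strand). Arg2 overlaps Vti1b and Gm48780 on the other strand, and the labels do not say whether the counting used strand.

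**Figure D1:**
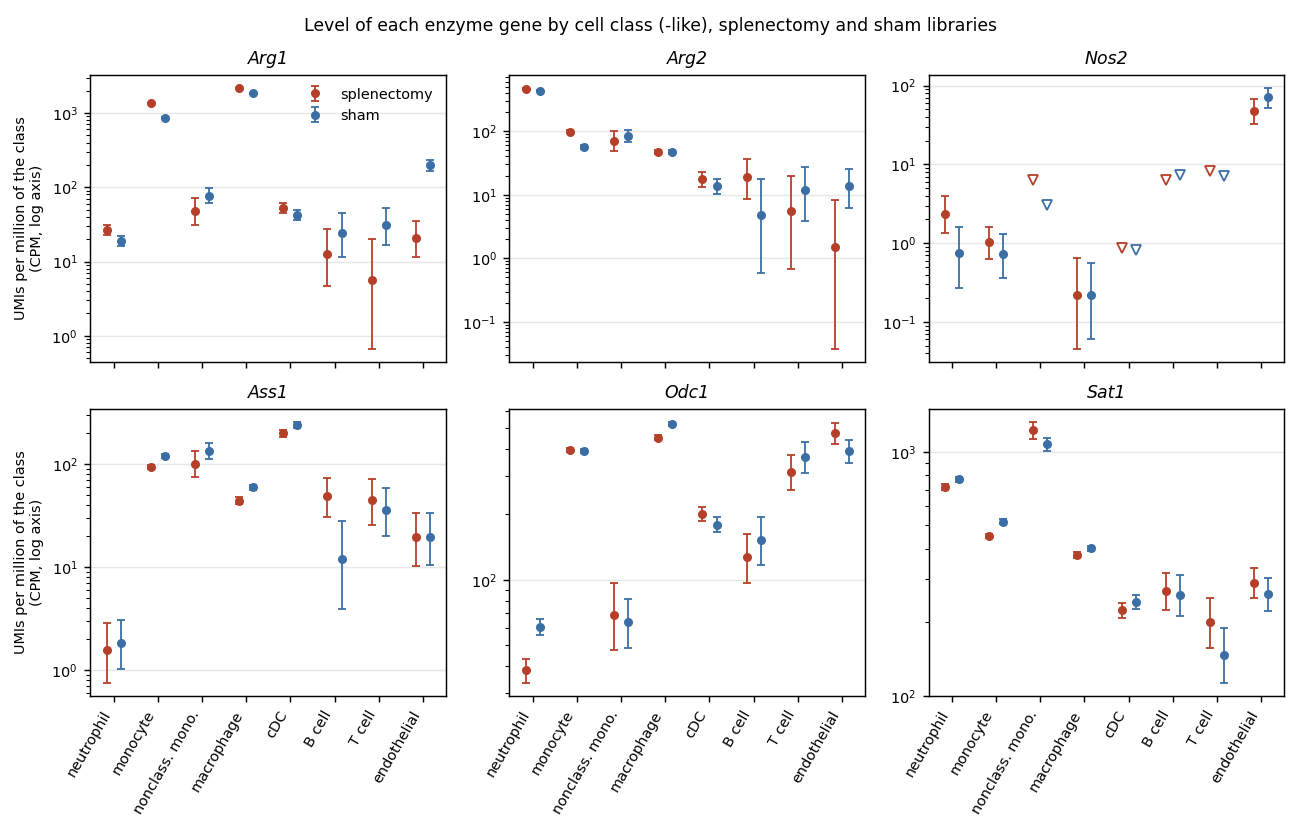
Level of each enzyme gene (CPM, log axis) in 8 cell classes of the splenectomy library (red, left of each pair) and the sham library (blue), where points are levels, bars are exact 95% Poisson intervals, and open triangles mark a gene with 0 UMIs at the level that 3 counts would give. Arg1 was highest in macrophage-like cells, Arg2 in neutrophil-like cells, Nos2 in endothelial cell-like cells, Ass1 in conventional dendritic cell-like cells and Sat1 in nonclassical monocyte-like cells in both libraries.

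The 6 genes differed more between cell classes than between the libraries. Of 48 combinations of gene and class, 31 had at least 50 UMIs in the library with the higher level, and 26 of these 31 differed by less than 1.5-fold between splenectomy and sham. Arg1 and Arg2 were higher by at least 1.5-fold in splenectomy monocyte-like cells, 2 of the 5 genes measured there. Odc1 in neutrophil-like cells (1 of 4 measured), Arg1 in endothelial cell-like cells (1 of 3) and Arg1 in nonclassical monocyte-like cells (1 of 5) were lower by at least 1.5-fold in splenectomy.

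Over all genes measured by the same rule, 3.17% were higher and 4.18% lower in splenectomy monocyte-like cells. The shares of all genes were 3.20% higher and 6.85% lower in neutrophil-like cells, 1.82% and 2.03% in macrophage-like cells, and 2.84% and 3.40% in conventional dendritic cell-like cells. They were 6.67% higher and 8.29% lower in endothelial cell-like cells, 3.07% and 8.47% in nonclassical monocyte-like cells, 6.47% and 1.70% in B cell-like cells, and 4.88% and 13.2% in T cell-like cells. With 2 to 5 of the enzymes measured in a class, a single call cannot be told from these shares.

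Arg1, the cytosolic arginase, was chiefly a gene of macrophage-like and monocyte-like cells. These classes together held 54000 of 54797 Arg1 UMIs in splenectomy and 46393 of 47449 in sham. In macrophage-like cells Arg1 stood at 2172 CPM (2147 to 2197) in splenectomy and 1832 CPM (1812 to 1852) in sham. In monocyte-like cells it stood at 1353 CPM (1336 to 1370) in splenectomy and 868 CPM (853 to 883) in sham. Each of the other 6 compared classes was below 200 CPM in both libraries, and in splenectomy the neighbours in the order of these lower classes had overlapping intervals. The log2 ratio of splenectomy over sham was 0.25 (0.22 to 0.27) in macrophage-like cells and 0.64 (0.61 to 0.67) in monocyte-like cells. Taking both classes together, Arg1 was at 1700 CPM in splenectomy and 1396 CPM in sham, a log2 ratio of 0.28 (0.27 to 0.30).

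The monocyte-like difference followed the mix of clusters in the class. A cluster led by Il6, Ccl24 and Serpinb2 made up 52.5% of splenectomy and 19.2% of sham monocyte-like cells, and in it Arg1 was at 2145 CPM in splenectomy and 2168 CPM in sham. A cluster led by Ms4a4c, Aif1 and Plac8 made up 31.5% of splenectomy and 68.1% of sham monocyte-like cells, and in it Arg1 was lower in splenectomy, at 494 CPM against 631 CPM in sham. In the remaining cluster, which carried Mgst1, Smpdl3a and Ly6c2, Arg1 was low, at 29.5 CPM in splenectomy and 19.8 CPM in sham. When the sham proportions of clusters were applied to both libraries the log2 ratio of the class became -0.17, and the change of proportions with the sham levels held fixed gave 0.69. Arg1 had no place among the genes used for clustering, so these clusters were not drawn from it. Coarser clustering moved 447 of the 913 cells of the Il6 and Ccl24 cluster to the macrophage-like class, and the monocyte-like log2 ratio was then -0.28.

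**Figure D2:**
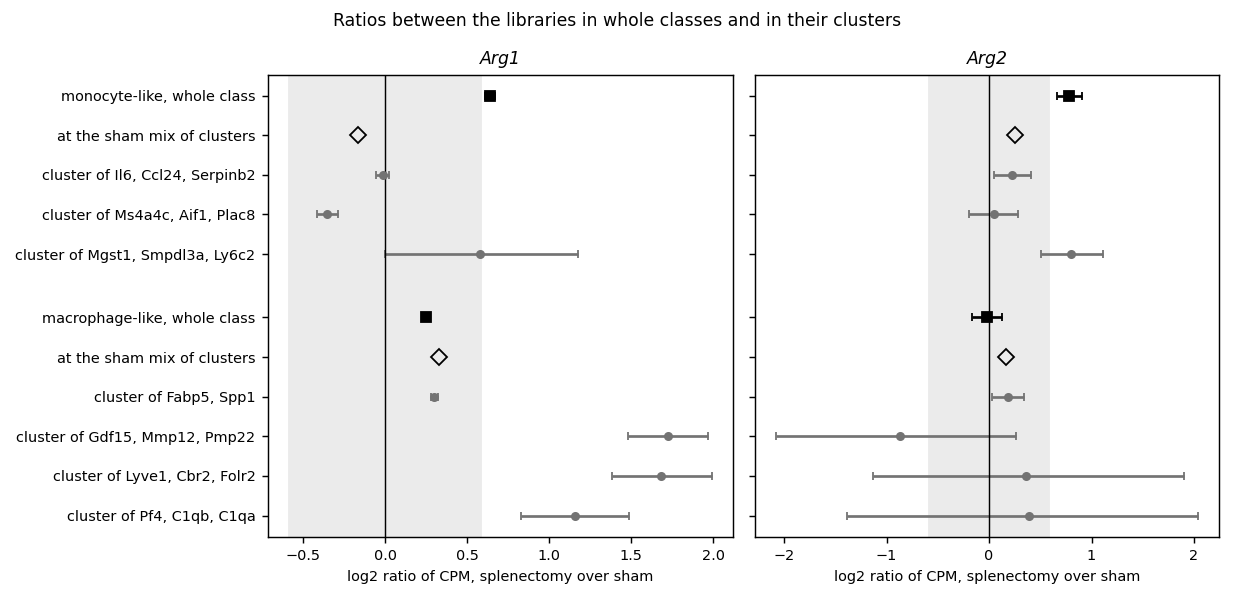
Log2 ratio of CPM, splenectomy over sham, for Arg1 (left panel) and Arg2 (right panel) in the monocyte-like and macrophage-like classes (black squares), in those classes at the sham proportions of clusters (diamonds) and in each of their clusters with at least 50 cells in both libraries (grey circles). Bars are exact 95% intervals of a ratio of counts, the shaded band is less than 1.5-fold, and the Arg1 ratio of the monocyte-like class is 0.64, and -0.17 at the sham proportions.

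In macrophage-like cells Arg1 was higher in splenectomy in all 4 clusters with at least 50 cells in both libraries. The largest of these, led by Fabp5 and Spp1, held 478 splenectomy cells and 744 sham cells and had 2984 CPM in splenectomy and 2424 CPM in sham, a log2 ratio of 0.30 (0.28 to 0.32). Spp1 encodes osteopontin, which recruited macrophages make in injured hearts. Resident-type macrophages with Lyve1, Cbr2 and Folr2 had far less Arg1, 173 CPM in splenectomy and 53.8 CPM in sham, and the cluster led by Gdf15 and Mmp12 had 272 CPM in splenectomy and 82.3 CPM in sham. The log2 ratios of these low clusters were 1.68 (1.39 to 1.99) and 1.72 (1.48 to 1.97). Few cells held most of the UMIs, since the 5 cells with most Arg1 held 87.9% of the UMIs in splenectomy and 84.3% in sham among Lyve1 cells, and 52.6% and 56.0% among Gdf15 cells.

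Without those 5 cells per library, Arg1 was at 136 CPM in splenectomy and 38.4 CPM in sham in the Gdf15 cluster, still higher in splenectomy. The Lyve1 cluster had 22.4 CPM in splenectomy and 8.92 CPM in sham. Most of its 379 splenectomy and 121 sham Arg1 UMIs had gone with those cells. What remained lay below the neutrophil-like levels of 26.4 CPM in splenectomy and 19.1 CPM in sham. The B cell-like levels were 12.7 CPM in splenectomy and 24.2 CPM in sham. No difference was therefore read from the Lyve1 cluster without those cells. In the Lyve1 cluster 34 of 183 splenectomy cells and 22 of 214 sham cells had an Arg1 UMI. Spp1, a defining gene of the high-Arg1 cluster, was also higher in splenectomy over all cells of these clusters. It was at 401 CPM in splenectomy and 132 CPM in sham in the Lyve1 cluster and 1701 CPM and 1071 CPM in the Gdf15 cluster. Lyve1 cells with an Arg1 UMI had more Spp1 than those without in both libraries. In the Gdf15 cluster Spp1 was at 2168 CPM with Arg1 and 1232 CPM without in splenectomy, but 349 CPM with and 1427 CPM without in sham. The part of Spp1 in the Arg1 difference was not tested. A cluster of few UMIs per cell (median 1323) led by Pf4 and C1qb had 1386 CPM of Arg1 in splenectomy and 621 CPM in sham.

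A further cluster, led by Saa3 and Prg4, held 15 splenectomy cells and 3 sham cells and the highest Arg1 of any cluster, 7512 CPM in splenectomy and 6615 CPM in sham. Saa3 encodes an acute-phase serum amyloid protein. Leaving out these 18 cells put macrophage-like Arg1 at 2042 CPM in splenectomy and 1822 CPM in sham, and the log2 ratio at 0.16 instead of 0.25.

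Cell by cell, Arg1 was graded within clusters. Each cell was thinned to 4000 UMIs, which left out shallower cells. In the Fabp5 and Spp1 cluster the median cell then had 10 Arg1 UMIs in splenectomy and 7 in sham, the highest had 76 and 51, and cells with none made up 8.05% and 10.6%. Cells with 10 or more made up 51.9% of that cluster in splenectomy and 39.6% in sham. In the Il6 and Ccl24 cluster the median was 3 in splenectomy and 4 in sham, and 38.9% of splenectomy cells and 28.4% of sham cells had none. The Ms4a4c cluster had a median of 0 in both libraries, with no Arg1 in 66.3% of splenectomy cells and 60.2% of sham cells. Most cells of the Gdf15 cluster (72.3% in splenectomy and 83.2% in sham), the Lyve1 cluster (89.5% and 95.9%) and the Mgst1 and Ly6c2 cluster (94.3% and 95.1%) had none either.

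**Figure D3:**
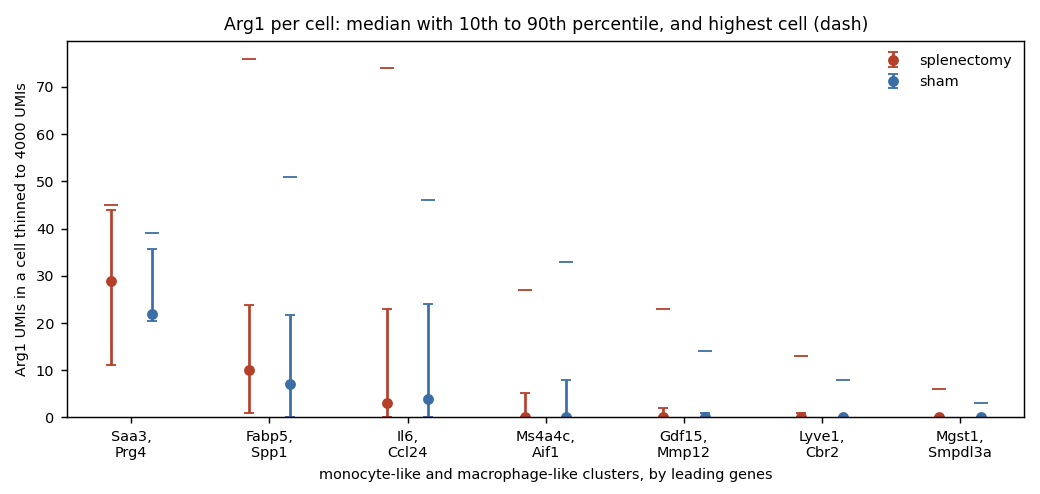
Arg1 UMIs per cell after thinning each cell to 4000 UMIs, in 7 monocyte-like and macrophage-like clusters named by leading genes, in the splenectomy library (red) and the sham library (blue). Points are medians, bars run from the 10th to the 90th percentile and dashes are the highest cell; the median falls to 0 in the Ms4a4c, Gdf15, Lyve1 and Mgst1 clusters in both libraries, and the Pf4 and C1qb cluster is left out because few of its cells reached 4000 UMIs.

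At matched depth the share of macrophage-like cells with any Arg1 was close between the libraries, and that of monocyte-like cells was higher in splenectomy, with overlapping intervals at 4000 UMIs and separate intervals at 1000 UMIs. Of thinned macrophage-like cells 62.3% (58.9 to 65.7, Clopper-Pearson) in splenectomy and 64.2% (61.3 to 67.0) in sham had an Arg1 UMI, against 66.9% and 65.7% before thinning. Of thinned monocyte-like cells 45.4% (42.6 to 48.1) in splenectomy and 41.0% (38.0 to 43.9) in sham had one, against 56.2% and 52.6% before thinning. At 1000 UMIs the monocyte-like shares were 33.3% (30.8 to 35.9) in splenectomy and 25.2% (22.7 to 27.8) in sham, and the macrophage-like shares 49.7% and 49.1%. B cell-like cells, which are not known for Arg1, gave a background at 4000 UMIs of 3 of 38 cells (7.89%) in splenectomy and 1 of 31 (3.23%) in sham. At 1000 UMIs 1 of 104 splenectomy and 3 of 102 sham B cell-like cells had an Arg1 UMI. The median depth of B cell-like cells was 3689 UMIs in splenectomy and 3489 UMIs in sham before thinning, so that most of them fell short of 4000 UMIs. Median depths were 14774 UMIs in splenectomy and 14483 UMIs in sham for macrophage-like cells, and 12923 and 12811 UMIs for monocyte-like cells. At 4000 UMIs Arg1 was seen in 8.68% of splenectomy and 5.62% of sham conventional dendritic cell-like cells. For nonclassical monocyte-like cells the shares were 6.67% and 11.2%. All of these shares lay within the intervals of the B cell-like background at 4000 UMIs. The UMIs were concentrated, since the tenth of cells with most Arg1 held 46.0% of macrophage-like UMIs in splenectomy and 45.8% in sham, and 60.0% and 66.2% of monocyte-like UMIs.

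In neutrophil-like cells Arg1 was thinly spread, with 167 UMIs in 139 cells in splenectomy (26.4 CPM) and 154 UMIs in 138 cells in sham (19.1 CPM). Conventional dendritic cell-like cells had 182 UMIs in 54 cells in splenectomy and 157 UMIs in 39 cells in sham. In the endothelial and nonclassical classes the Arg1 values turned on a few cells. Endothelial cell-like cells had 14 Arg1 UMIs in splenectomy and 131 in sham, or 20.99 CPM and 197 CPM, a log2 ratio of -3.23. Of the 131 sham UMIs, 124 lay in 2 cells, and in those 2 cells macrophage markers summed to 40330 CPM, against 2045 CPM in the other sham endothelial cell-like cells. The 2 cells also held a median of 20456.5 UMIs, against 3052 in the others. Over all endothelial cell-like cells the 16 macrophage markers summed to 2225 CPM in splenectomy and 4407 CPM in sham, with none at 0 in both libraries. Without the 5 cells per library with most Arg1, 7 UMIs remained in splenectomy and 1 in sham, too few to give a direction. Nonclassical monocyte-like cells had 48.2 CPM of Arg1 in splenectomy (23 UMIs) and 77.0 CPM in sham (75 UMIs), a log2 ratio of -0.67 whose interval of -1.42 to 0.02 included 0. Single cells with 5 or more UMIs, 1 in splenectomy and 5 in sham, held 16 of those 23 UMIs and 51 of those 75 UMIs.

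Arg2, the mitochondrial arginase, had its highest level in neutrophil-like cells. Neutrophil-like cells had 469 CPM (452 to 486) in splenectomy and 437 CPM (422 to 451) in sham, and held 53.7% of all Arg2 UMIs in splenectomy and 65.0% in sham. The log2 ratio of 0.10 (0.03 to 0.17) became 0.00 at the sham proportions of clusters, and 2 of 4 neutrophil-like clusters were higher in splenectomy. Arg2 was highest in the cluster led by Retnlg, a marker of young neutrophils, at 536 CPM in splenectomy and 575 CPM in sham. The interferon-responding cluster led by Ifit1 had 439 CPM in splenectomy and 470 CPM in sham, the Il23a and Csf1 cluster 425 CPM and 413 CPM, and the Nt5e and Ppp1r3b cluster 369 CPM and 341 CPM. Thinned to 2000 UMIs, 51.86% of splenectomy and 50.05% of sham neutrophil-like cells had an Arg2 UMI (67.3% and 62.1% before thinning), against 1 of 100 and 1 of 99 B cell-like cells. Neutrophil-like cells held medians of 3745 UMIs in splenectomy and 3319 UMIs in sham. Monocyte-like cells, which were deeper, held 32.5% of all Arg2 UMIs in splenectomy and 15.8% in sham. Before thinning 52.6% of splenectomy and 37.2% of sham monocyte-like cells had an Arg2 UMI. At 1000 UMIs 8.60% and 5.34% of monocyte-like cells had one, against 32.9% and 32.3% of neutrophil-like cells.

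In monocyte-like cells Arg2 stood at 97.9 CPM in splenectomy and 56.8 CPM in sham, a log2 ratio of 0.79 (0.67 to 0.90). All 3 clusters were higher in splenectomy, but at the sham proportions of clusters the log2 ratio was 0.25. The Mgst1 and Ly6c2 cluster, which has classical monocyte genes, had 120 CPM in splenectomy and 68.5 CPM in sham, a log2 ratio of 0.80 (0.50 to 1.11). The Il6 and Ccl24 cluster had 121 CPM in splenectomy and 103 CPM in sham, and the Ms4a4c cluster 41.8 CPM and 40.5 CPM.

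Neutrophil markers were also higher in splenectomy monocyte-like cells. The 10 neutrophil markers summed to 2477 CPM in splenectomy monocyte-like cells (single markers 1.97 to 1834 CPM) and 792 CPM in sham (0.931 to 443 CPM), and 8 of the 10 were higher in splenectomy and none was at 0. In the Mgst1 and Ly6c2 cluster the sum was 6298 CPM in splenectomy and 1878 CPM in sham, against 145788 CPM and 115634 CPM in neutrophil-like cells. In the Il6 and Ccl24 cluster it was 2092 CPM in splenectomy and 742 CPM in sham. In the Ms4a4c cluster it was 1269 and 606 CPM, whereas Arg2 there was close between the libraries, at 41.8 and 40.5 CPM. In monocyte-like cells with at most 2 UMIs of S100a8 and S100a9 after thinning, a selection made after the data had been seen, Arg2 was at 80.4 CPM in splenectomy and 52.6 CPM in sham, a log2 ratio of 0.61. Those were 775 splenectomy cells and 872 sham cells, and in them S100a8 was at 177 CPM in splenectomy and 129 CPM in sham. Whether neutrophil transcripts have a part in the Arg2 difference was not tested.

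Elsewhere Arg2 was low. Nonclassical monocyte-like cells had 71.3 CPM in splenectomy and 84.2 CPM in sham, and macrophage-like cells had 47.0 CPM and 47.6 CPM, a log2 ratio of -0.02. Within the macrophage-like class the Fabp5 and Spp1 cluster had 69.9 CPM in splenectomy and 61.5 CPM in sham, and the Lyve1 cluster had 4.56 CPM and 3.55 CPM. In the order of classes, the intervals of monocyte-like and nonclassical monocyte-like cells overlapped in splenectomy, as did those of nonclassical monocyte-like and macrophage-like cells. In sham these classes were told apart by their intervals, with nonclassical monocyte-like cells above monocyte-like cells. Conventional dendritic cell-like cells had 17.4 CPM in splenectomy and 13.6 CPM in sham, and B cell-like, T cell-like and endothelial cell-like cells had 9 or fewer UMIs in each library.

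Nos2, the inducible nitric oxide synthase, was nearly undetected in the immune cells. The whole library held 69 Nos2 UMIs in splenectomy and 68 in sham. Macrophage-like cells had 3 Nos2 UMIs in splenectomy and 4 in sham, or 0.223 CPM and 0.220 CPM. Monocyte-like cells had 19 UMIs in 8 cells in splenectomy and 11 UMIs in 7 cells in sham, with up to 7 and 4 in a cell. Neutrophil-like cells had 15 UMIs in splenectomy and 6 in sham, of which 13 and 0 lay in the Retnlg cluster. No Nos2 UMI was seen in conventional dendritic cell-like, B cell-like, nonclassical monocyte-like or T cell-like cells. A count of 0 allows up to 3 counts, which is 0.870 CPM in splenectomy and 0.818 CPM in sham for the dendritic class, 6.34 and 7.25 CPM for the B cell class, 6.29 and 3.08 CPM for the nonclassical class, and 8.33 and 7.14 CPM for the T cell class.

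Endothelial cell-like cells carried 32 of the 69 Nos2 UMIs in splenectomy and 47 of the 68 in sham, at 48.0 CPM (32.8 to 67.7) and 70.9 CPM (52.1 to 94.2). The UMIs came from 17 of 106 cells in splenectomy and 26 of 108 in sham, with at most 6 in a cell in both libraries. All other kept cells together had a Nos2 UMI in 23 of 4699 cells (0.489%) in splenectomy and 17 of 5730 (0.297%) in sham, at 0.839 CPM and 0.432 CPM. The class log2 ratio of -0.56 had an interval of -1.26 to 0.12, and it was below 0 in 12 of 13 alternatives. Shares went both ways, with 6.60% of cells in splenectomy and 1.85% in sham at 500 UMIs and 5.26% and 7.69% at 1000 UMIs. No order between the libraries was therefore read from Nos2. No B cell-like cell of 111 in splenectomy or 110 in sham had a Nos2 UMI, which allows a share of up to 2.70% and 2.73%.

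Within the endothelial cell-like class, the cells with Nos2 had the genes of endothelium. Cdh5, which encodes VE-cadherin, had a UMI in 17 of 17 such cells in splenectomy and 24 of 26 in sham, and Pecam1, the gene of CD31, in 16 and 25. Both genes were on the marker list that named the class, so they give no separate support for its name. Ptprc was seen in 0 of the 17 and 2 of the 26. S100a9, a neutrophil marker, was seen in 9 and 15 of them, and in 51 of 89 and 40 of 82 cells of the class without Nos2. Nos3, the endothelial nitric oxide synthase, had a UMI in 58.8% of the cells with Nos2 in splenectomy and 46.2% in sham, against 32.6% and 15.9% of the endothelial cell-like cells without Nos2. Cells with Nos2 were also deeper, with a median of 5954 UMIs in splenectomy and 7351 in sham, against 2396 and 2341.5 UMIs in those without, and the part of depth in the Nos3 shares was not tested.

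Ass1, argininosuccinate synthase, had its highest level in conventional dendritic cell-like cells, at 199 CPM (184 to 214) in splenectomy and 241 CPM (225 to 257) in sham. Nonclassical monocyte-like cells followed with 101 CPM in splenectomy and 134 CPM in sham, then monocyte-like cells with 93.7 CPM and 120 CPM, and the intervals of nonclassical monocyte-like and monocyte-like cells overlapped in both libraries. Macrophage-like cells had 44.0 CPM in splenectomy and 59.2 CPM in sham. Neutrophil-like cells were almost without Ass1, with 10 UMIs in splenectomy and 15 in sham, or 1.58 CPM and 1.86 CPM. Monocyte-like cells, being many, held 54.2% of all Ass1 UMIs in splenectomy and 44.7% in sham.

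All ratios of Ass1 in these myeloid classes were below 0 and less than 1.5-fold. The log2 ratio was -0.28 in conventional dendritic cell-like cells, -0.42 (-0.93 to 0.07) in nonclassical monocyte-like cells, -0.36 (-0.45 to -0.26) in monocyte-like cells and -0.43 (-0.58 to -0.28) in macrophage-like cells. At the sham proportions of clusters the ratio was -0.17 in monocyte-like and -0.25 in macrophage-like cells, and 0 of 3 monocyte-like clusters and 1 of 4 macrophage-like clusters were higher in splenectomy. Among monocyte-like clusters the Mgst1 and Ly6c2 cluster was lowest, with 24.7 CPM in splenectomy and 33.7 CPM in sham, against 125 and 140 CPM in the Ms4a4c cluster and 95.7 and 106 CPM in the Il6 and Ccl24 cluster. Among macrophage-like clusters the Fabp5 and Spp1 cluster had 62.8 CPM in splenectomy and 74.1 CPM in sham, whereas the Lyve1 cluster had 1.37 and 8.00 CPM. Thinned to 4000 UMIs, 42.1% of dendritic cells in splenectomy and 52.2% in sham had an Ass1 UMI (74.1% and 79.0% before thinning). Of the few B cell-like cells of that depth, 8 of 38 (21.1%) in splenectomy and 2 of 31 (6.45%) in sham had one. At 1000 UMIs 19.0% and 23.3% of dendritic cells had one, against 2 of 104 and 1 of 102 B cell-like cells. B cell-like cells themselves had 23 Ass1 UMIs in splenectomy, 11 of them in 1 cell, and 5 in sham.

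Odc1, ornithine decarboxylase, was expressed widely and, of the 8 classes, was low in neutrophil-like and nonclassical monocyte-like cells. Macrophage-like cells had 451 CPM (440 to 462) in splenectomy and 524 CPM (513 to 534) in sham, monocyte-like cells 397 CPM and 392 CPM, and endothelial cell-like cells 472 CPM and 390 CPM. T cell-like cells had 314 CPM in splenectomy and 366 CPM in sham, conventional dendritic cell-like cells 201 and 180 CPM, and B cell-like cells 127 and 152 CPM. Nonclassical monocyte-like cells, at 69.2 CPM in splenectomy and 63.6 CPM in sham, stood well below the other monocyte-like cells. The neutrophil-like interval lay below the nonclassical one in splenectomy and overlapped it in sham. In sham the intervals of monocyte-like, endothelial cell-like and T cell-like cells overlapped in turn, and in splenectomy those of endothelial cell-like and macrophage-like cells did. In the endothelial class the tenth of cells with most Odc1 held 82.9% of its UMIs in splenectomy, with up to 89 in a cell.

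In neutrophil-like cells Odc1 was lower in splenectomy, at 38.3 CPM (33.6 to 43.4) against 60.7 CPM (55.5 to 66.4) in sham, a log2 ratio of -0.67 (-0.89 to -0.44). The counts behind it were 242 UMIs in splenectomy and 490 in sham. The cluster led by Il23a and Csf1 was the only one of 4 whose interval lay wholly below 0, with 37.5 CPM in splenectomy and 86.4 CPM in sham, a log2 ratio of -1.20 (-1.58 to -0.85). The Retnlg cluster had 42.3 CPM in splenectomy and 38.6 CPM in sham, and the Nt5e cluster 33.9 and 34.5 CPM. The Ifit1 cluster had 15.8 CPM in splenectomy and 40.8 CPM in sham, on 4 and 39 UMIs.

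A small set of neutrophil-like cells held much of this Odc1. Cells with 3 or more Odc1 UMIs numbered 23 (1.45%) in splenectomy and 35 (1.54%) in sham, and held 50.8% of the class's Odc1 UMIs in splenectomy and 62.4% in sham. In the Il23a and Csf1 cluster 7 such cells held 32 UMIs in splenectomy and 23 such cells held 237 UMIs in sham. Their neutrophil markers summed to 161168 CPM in splenectomy and 119035 CPM in sham over the class, and their macrophage markers to 1857 CPM and 1655 CPM, close to the 1905 CPM and 1772 CPM of neutrophil-like cells with no Odc1. Without the 5 cells per library with most Odc1, neutrophil-like cells had 30.5 CPM in splenectomy and 45.6 CPM in sham. That is a log2 ratio of -0.58, just short of 1.5-fold. At 2000 UMIs 5.02% of splenectomy and 6.36% of sham neutrophil-like cells had an Odc1 UMI (8.05% and 8.81% before thinning), less than the 12 of 100 and 17 of 99 B cell-like cells with one, so that no difference was read from these shares.

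Among the macrophage and monocyte clusters Odc1 was highest in 2 that were also high in Arg1, but the order was not the same throughout. The Fabp5 and Spp1 cluster had 626 CPM of Odc1 in splenectomy and 667 CPM in sham, and the Il6 and Ccl24 cluster had 516 and 602 CPM. Values were lower in the Ms4a4c cluster (264 CPM in splenectomy and 360 CPM in sham), the Mgst1 and Ly6c2 cluster (209 and 223 CPM), the Gdf15 cluster (182 and 138 CPM) and the Lyve1 cluster (72.0 and 69.8 CPM). The Saa3 and Prg4 cluster, first for Arg1, was not first for Odc1, with 266 CPM in splenectomy and 234 CPM in sham. The Mgst1 and Ly6c2 cluster had less Arg1 than the Gdf15 and Lyve1 clusters but more Odc1, in both libraries. The class log2 ratio of Odc1 was -0.22 (-0.26 to -0.17) in macrophage-like cells and 0.02 in monocyte-like cells, and the monocyte-like ratio became -0.34 at the sham proportions, with 0 of 3 clusters higher in splenectomy.

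Sat1, spermidine/spermine acetyltransferase, was high in the classes with least Odc1, nonclassical monocyte-like and neutrophil-like cells. Nonclassical monocyte-like cells had 1224 CPM (1127 to 1328) in splenectomy and 1073 CPM (1009 to 1140) in sham, the highest level of Sat1 among the 8 classes in both libraries. Neutrophil-like cells followed with 719 CPM in splenectomy and 772 CPM in sham, then monocyte-like cells with 451 and 518 CPM and macrophage-like cells with 378 and 402 CPM. None of these neighbours had overlapping intervals in either library. Endothelial cell-like cells (291 CPM in splenectomy and 261 CPM in sham), B cell-like cells (268 and 259 CPM) and conventional dendritic cell-like cells (224 and 242 CPM) overlapped in turn, and T cell-like cells were last with 200 CPM in splenectomy and 147 CPM in sham.

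Sat1 differed by less than 1.5-fold between the libraries in all 8 classes, with log2 ratios of 0.19 in nonclassical monocyte-like, -0.10 in neutrophil-like, -0.20 in monocyte-like and -0.09 in macrophage-like cells. It was lower in splenectomy in each of the 3 monocyte-like clusters and each of the 4 macrophage-like clusters with enough cells. The Ifit1 neutrophil cluster had the highest Sat1 among neutrophil-like clusters, 1088 CPM in splenectomy and 887 CPM in sham, a log2 ratio of 0.30. Among monocyte-like and macrophage-like clusters Sat1 was highest in the Mgst1 and Ly6c2 cluster, at 658 CPM in splenectomy and 725 CPM in sham, and in the Lyve1 cluster, at 580 and 684 CPM. The Ms4a4c cluster had 462 CPM in splenectomy and 508 CPM in sham, the Gdf15 cluster 378 and 481 CPM, and the Fabp5 and Spp1 cluster 335 and 343 CPM. Low Odc1 did not always go with high Sat1, since the Gdf15 cluster had less Odc1 than the Ms4a4c cluster and also less Sat1 in both libraries. Thinned to 2000 UMIs, 65.8% of splenectomy and 67.4% of sham neutrophil-like cells had a Sat1 UMI (78.8% and 78.1% before thinning), against 39.0% and 39.4% of B cell-like cells.

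Within single macrophage-like cells Arg1 and Odc1 were found together more often than their separate shares would give. At 4000 UMIs both were seen in 310 splenectomy cells, where unrelated shares would give 245.0, and in 476 sham cells, where they would give 385.8. Odc1 had a UMI in 62.0% of splenectomy cells with Arg1 and 27.5% of those without, and in 67.9% and 32.0% of the sham cells. Arg1 and Arg2, both arginases, were seen together in 87 splenectomy cells against 60.5 by unrelated shares and in 118 sham cells against 88.6. Arg1 and Sat1 went the other way, with 318 splenectomy cells against 341.0 and 468 sham cells against 502.6. Monocyte-like cells gave the same direction for Arg1 and Odc1, together in 351 splenectomy cells against 298.5 and 254 sham cells against 220.3. So did Arg1 and Sat1, in 426 against 446.0 and 330 against 339.1. Arg1 and Arg2 did not repeat there, with 133 splenectomy cells against 152.0 and 83 sham cells against 82.7. Of the 15 pairs, 10 had an expected number of at least 5 in macrophage-like cells, and 6 of these 10 were above it in each library. These classes hold several clusters, so a pair may sit together in a cluster without being linked inside it. Inside the Fabp5 and Spp1 cluster, unthinned, Odc1 was at 635 CPM in splenectomy cells with Arg1 and 401 CPM in those without. The sham values were 677 and 380 CPM. It was also higher with Arg1 in the Ms4a4c and the Il6 and Ccl24 clusters of both libraries. In the Gdf15 cluster it was lower with Arg1 in both, and in the Lyve1, Mgst1 and Pf4 clusters the libraries went opposite ways. A link inside clusters was not tested.

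Grouping the thinned macrophage-like and monocyte-like cells by their Arg1 UMIs showed the same arrangement in steps. Cells with 0, 1 to 3, 4 to 9 and 10 or more Arg1 UMIs numbered 1030, 278, 298 and 503 in splenectomy and 1037, 355, 379 and 415 in sham. Odc1 over these groups was 250, 406, 572 and 590 CPM in splenectomy and 253, 521, 620 and 595 CPM in sham. It was thus higher in cells with Arg1 and flat over the upper groups. Sat1 was lower from group to group, with 543, 415, 393 and 319 CPM in splenectomy and 592, 497, 407 and 363 CPM in sham. Its intervals overlapped between 1 to 3 and 4 to 9 Arg1 UMIs in splenectomy, and between 4 to 9 and 10 or more in sham. Ass1 was lowest in the cells with most Arg1, with 77.2, 87.2, 106 and 48.2 CPM in splenectomy and 86.8, 115, 102 and 54.8 CPM in sham. Slc7a2, a cationic amino acid transporter that brings arginine into cells, was higher in the last group than in the first. It was at 6.31, 7.19, 19.3 and 34.3 CPM in splenectomy and 1.45, 7.04, 11.9 and 15.1 CPM in sham. Intervals of neighbouring groups overlapped throughout in splenectomy, and in sham among the groups with Arg1. The groups mix clusters, since Spp1 was at 1879 CPM in the first and 11404 CPM in the last group of splenectomy cells and at 2020 and 12464 CPM in those of sham cells.

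**Figure D4:**
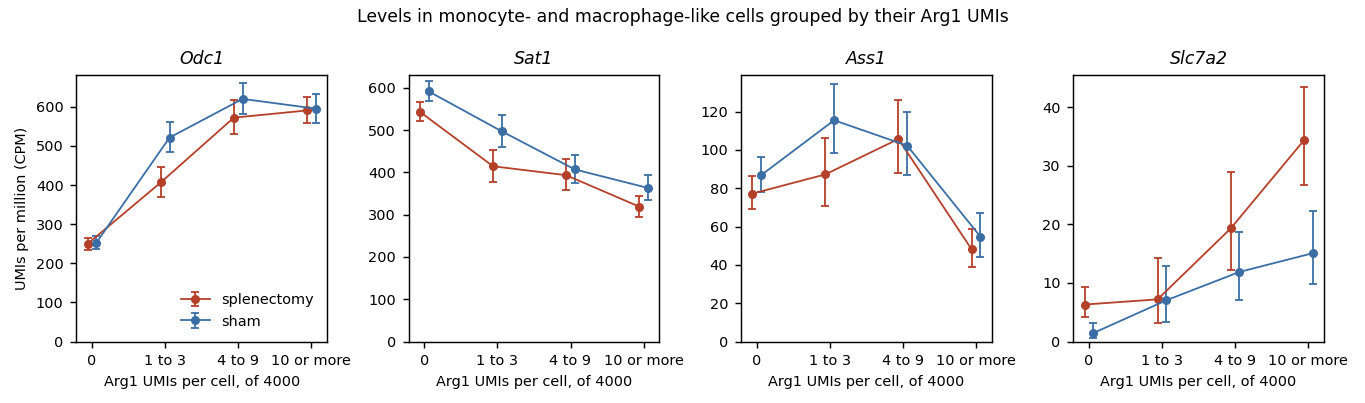
Levels of Odc1, Sat1, Ass1 and Slc7a2 (CPM) in monocyte-like and macrophage-like cells grouped by their Arg1 UMIs after thinning to 4000 UMIs, in the splenectomy library (red) and the sham library (blue), with exact 95% Poisson intervals. Odc1 and Slc7a2 are higher and Sat1 is lower in cells with 10 or more Arg1 UMIs than in cells with none in both libraries.

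Few of the other genes of these pathways were called in the neutrophil, macrophage and monocyte classes. A larger share of those measured was called in endothelial cell-like cells, and in T cell-like cells, where 4 were measured. Of 55 genes on 4 lists (arginine synthesis and breakdown, nitric oxide, polyamines, and cationic amino acid transport), 54 were among the features. In neutrophil-like cells 18 of them had enough counts and 0 were higher or lower by 1.5-fold (3.20% and 6.85% over all genes), with a median log2 ratio of 0.06 against -0.08 over all genes measured. In monocyte-like cells 1 of 36 was higher and 0 lower (3.17% and 4.18% over all genes), with a median of 0.04 against -0.0015 over all genes. In macrophage-like cells 2 of 38 were higher and 1 lower (1.82% and 2.03% over all genes), with a median of 0.0052 against -0.0098. In endothelial cell-like cells 3 of 14 were higher and 0 lower (6.67% and 8.29% over all genes), with a median of 0.20 against -0.03. There the nitric oxide list had 2 of 4 measured genes higher and a median of 0.56.

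Slc7a2 was the monocyte-like gene, at 18.9 CPM in splenectomy and 6.91 CPM in sham, a log2 ratio of 1.45 (1.13 to 1.78). In the Il6 and Ccl24 cluster, where it was highest of the 3 clusters, it stood at 29.4 CPM in splenectomy and 19.6 CPM in sham. In macrophage-like cells Slc7a2 was at 14.9 CPM in splenectomy and 9.40 CPM in sham, a log2 ratio of 0.67, but without the 18 cells of the Saa3 and Prg4 cluster it was at 9.12 and 9.03 CPM. Those 18 cells had 253 CPM in splenectomy and 182 CPM in sham. The other macrophage-like calls rested on low levels: Slc25a15, the mitochondrial ornithine carrier, had 4.68 CPM in splenectomy and 2.69 CPM in sham, and Aldh4a1, an enzyme of proline breakdown, had 2.67 and 4.29 CPM.

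In endothelial cell-like cells Nos3 had 124 CPM in splenectomy and 72.4 CPM in sham, Gucy1b1, a subunit of the nitric oxide receptor guanylate cyclase, had 82.5 and 30.2 CPM, and Dohh, which completes hypusine synthesis on Eif5a, had 76.5 and 37.7 CPM. Their log2 ratios were 0.78, 1.45 and 1.02. Markers of other cells moved in this class too. The 7 mural cell markers summed to 2391 CPM in splenectomy (single markers 20.99 to 778 CPM) and 1024 CPM in sham (0 to 378 CPM), with 6 of 7 higher, and the 8 fibroblast markers to 2420 CPM (59.97 to 956 CPM) and 796 CPM (10.6 to 216 CPM), with 7 of 8 higher. The 5 erythroid markers summed to 209.9 CPM in splenectomy and 75.4 CPM in sham. The endothelial markers summed to 12890 CPM in splenectomy and 11789 CPM in sham. The part of these cells in the calls was not tested. In the remaining classes Amd1 in conventional dendritic cell-like cells (18.6 CPM in splenectomy and 11.5 CPM in sham) and Gch1 in T cell-like cells (158 and 90.4 CPM) were higher, and Dhps in nonclassical monocyte-like cells was lower (35.6 and 58.5 CPM). They were 1 of 25, 1 of 4 and 1 of 12 measured genes. Over all genes 2.84% were higher in the dendritic class, 4.88% higher in the T cell class and 8.47% lower in the nonclassical class. A single call cannot be told from these shares. The genes of these 4 classes were named after their values had been seen.

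Among polyamine genes Oaz1, the antizyme that inhibits ornithine decarboxylase, was at 938 CPM in splenectomy and 995 CPM in sham monocyte-like cells and 857 and 882 CPM in macrophage-like cells. Smox, spermine oxidase, was highest in neutrophil-like cells at 378 CPM in splenectomy and 395 CPM in sham. Eif5a, whose protein carries hypusine made from spermidine, had 357 CPM in splenectomy and 262 CPM in sham neutrophil-like cells, a log2 ratio of 0.45. Srm, spermidine synthase, had 43.3 CPM in splenectomy and 31.7 CPM in sham monocyte-like cells, also 0.45. Gch1, which starts the synthesis of the nitric oxide synthase cofactor tetrahydrobiopterin, had 193 CPM in splenectomy and 186 CPM in sham monocyte-like cells. Oat, ornithine aminotransferase, had 65.5 CPM in splenectomy and 56.7 CPM in sham macrophage-like cells. The urea cycle genes Otc (0 UMIs in splenectomy and 2 in sham) and Cps1 (0 and 0) were not detected beyond these counts, nor was neuronal Nos1 (0 and 0).

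Over the 17 clusters with at least 50 cells in both libraries, likeness was measured as the lower of the Pearson correlations in each library of log2(CPM + 10), among 7952 genes. Arg1 was most like Tpi1, a glycolytic enzyme gene (0.886 in splenectomy and 0.887 in sham), F7, coagulation factor VII (0.859 and 0.884), and Ecm1 (0.852 and 0.862). Arg2 was most like Trem1, a myeloid activating receptor (0.980 and 0.977), Sgms2 (0.970 and 0.966) and Pygl (0.956 and 0.952). Sat1 was most like Fgd4 (0.927 and 0.935), Odc1 most like Ddx39 (0.879 and 0.858), and Ass1 most like Ryr1 (0.885 and 0.854). Between the enzymes themselves the correlation over the 17 clusters was -0.69 in splenectomy and -0.64 in sham for Odc1 with Sat1, 0.55 and 0.75 for Arg1 with Odc1, and 0.60 and 0.60 for Arg2 with Sat1. Clusters of a library share its depth and its free RNA, so these are descriptions.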

How the data were processed

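UMI counts per gene and cell barcode were used as deposited, with no normalization. Per the file headers they come from Cell Ranger 5.0.0, and the submitters' processing notes name STAR and mm10. The libraries held 48024013 UMIs in 5087 barcodes (splenectomy) and 53512625 UMIs in 6210 barcodes (sham). Barcodes with under 200 genes (26 and 32) or over 20% mitochondrial UMIs (72 and 58) were left out, as were the highest Scrublet scores, 8 per 1000 cells for each 1000 cells (200 and 302 cells). Both libraries were clustered together in scanpy 1.11.5 (2000 variable genes without the enzymes and their pathway lists, 30 principal components, 15 neighbours, Leiden resolution 1.0). Clusters were named from 21 marker lists. Names needed 3 markers in 25% of cells at 1.5-fold, and details of the naming were settled after cluster names had been seen. Members and lists were chosen with earlier results of these data known. Counts were summed by class and library. Ratios carry exact conditional binomial intervals, computed with scipy 1.17.1. Calls needed a 1.5-fold ratio and 50 counts in the library with the higher level. Named pathway genes are the 3 highest, the 3 lowest and the most abundant per list in the neutrophil-like, the macrophage-like and the monocyte-like class. The scripts were tested on simulated data. In all, 16 alternatives were planned, and 4 were added after the data had been seen.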

Additional observations from a re-analysis of the deposited data

Results flagged for a closer look

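Arg1 was higher by at least 1.5-fold in splenectomy monocyte-like cells (log2 ratio 0.64) and lower by at least 1.5-fold in splenectomy endothelial cell-like cells (-3.23) and nonclassical monocyte-like cells (-0.67), opposite directions under the same comparison. With 1 library per group the difference between these classes was not tested. The endothelial value rests on 14 UMIs in splenectomy and 131 in sham, of which 124 lay in 2 cells, and the nonclassical value rests on 23 UMIs in splenectomy and 75 in sham.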

How the results depend on the processing

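No paired analysis was possible because each group has 1 library. Over 32 ratios, 334 values under the alternatives stayed inside the counting interval of the reported ratio, 95 lay outside it, and 7 turned round a ratio that had been past 1.5-fold. Counting ratios of any size, 55 values had the other sign. Odc1 in neutrophil-like cells (log2 ratio -0.67) stayed below 0 in all 13 alternatives, from -0.68 to -0.45, and was past 1.5-fold in 10 of them.

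Arg1 in monocyte-like cells (log2 ratio 0.64) became -0.28 at resolution 0.6, 0.17 at resolution 1.5, 0.45 with libraries clustered apart, 0.58 with classes set by each cell's marker UMIs, 0.15 with all genes among the variable genes, 0.16 with at least 500 genes, 0.0072 with at most 10% mitochondrial UMIs, 0.16 without doublet removal, 0.60 as a mean over cells and 0.59 in thinned cells. Class membership changes in most of these: at most 10% mitochondrial UMIs took 794 of the 913 cells of the Il6 and Ccl24 cluster out of the monocyte-like and macrophage-like classes. Among alternatives chosen after seeing the data it was 0.77 in cells with few S100a8 and S100a9 UMIs, 0.68 without the 5 cells with most Arg1 and 0.28 with macrophage-like cells added. Arg1 in macrophage-like cells (0.25) stayed above 0, at 0.34 at resolution 0.6, 0.17 with classes set by marker UMIs, 0.27 with at most 10% mitochondrial UMIs and 0.28 as a mean over cells, and, chosen after seeing the data, 0.16 without the Saa3 and Prg4 cluster, 0.22 without the 5 cells and 0.28 with monocyte-like cells added.

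Arg2 in monocyte-like cells (0.79) became 1.24 with libraries clustered apart, 0.67 with classes set by marker UMIs, 0.63 without doublet removal, 0.63 in thinned cells, 0.61 in cells with few S100a8 and S100a9 UMIs and 0.56 with macrophage-like cells added. Arg1 in endothelial cell-like cells (-3.23) became 2.38 with classes set by marker UMIs, 0.54 with at most 10% mitochondrial UMIs, 0.022 without doublet removal, 0.36 as a mean over cells, 0.027 in thinned cells and 2.68 without the 5 cells with most Arg1, which leaves 7 UMIs in splenectomy and 1 in sham.

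The count of combinations higher in splenectomy (2) was 1 at resolution 1.5, with at least 500 genes, with at most 10% mitochondrial UMIs and without doublet removal, 9 with classes set by marker UMIs, 4 with at least 10 counts and 0 at 2-fold. The count lower in splenectomy (3) was 9 with libraries clustered apart, 6 with classes set by marker UMIs, 1 in thinned cells, 5 with at least 10 counts and 1 at 2-fold. The number of combinations measured and the share of all genes called were not worked out under each alternative. These counts therefore cannot be read as many or few. At 2-fold the macrophage-like pathway genes were 0 higher and 0 lower. Where a cause is not given by the alternative's construction, the cause was not tested. Of the 6 enzymes, 4 had under 50 UMIs in both libraries in B cell-like cells and likewise 4 in T cell-like cells, so no call was possible there at this depth.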

Other observations

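Cells outside the compared classes held the enzymes as follows, with no comparison between the libraries. The cluster with Hist1h2ap, Pclaf and Stmn1, genes of dividing cells, was left unnamed and held 20 splenectomy cells and 61 sham cells. In it Odc1 was at 177 CPM in splenectomy and 365 CPM in sham, Ass1 at 86.5 and 98.1 CPM, Arg1 at 97.6 and 142 CPM and Sat1 at 315 and 202 CPM. The other unnamed cluster, led by Ccnb1ip1 and Rmrp, held 326 splenectomy cells and 362 sham cells, with Arg1 at 467 CPM in splenectomy and 503 CPM in sham and Sat1 at 819 and 758 CPM. Natural killer cell-like cells numbered 31 in splenectomy and 66 in sham, and 98 of the 99 Arg1 UMIs of the sham cells lay in 1 cell, while the splenectomy cells had 1 Arg1 UMI. They had 0 Arg2 UMIs in both libraries. Cardiomyocyte-like cells numbered 8 in splenectomy and 14 in sham, with 74 and 2 Arg1 UMIs. Of the 74 splenectomy UMIs, 71 lay in 2 cells with a median of 12696.5 UMIs, against 1810 in the other splenectomy cells. Macrophage markers summed to 24062 CPM in those 2 cells and to 9797 CPM in the others.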
